A study of Mus musculus with 4 samples.

Results

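Respiratory complex I of skeletal muscle is built from proteins of 2 genomes, and the nuclear-encoded part was examined here in RNA of isolated mitochondria and of the tissue they were taken from. All rows annotated as protein-coding whose symbol is Nduf followed by a, b, c, s or v and a number, plus Ndufab1, were taken as members, and the assembly factors named Ndufaf were left out. This gave 39 of the 16472 genes in the table, of which 14 belonged to class a, 1 (Ndufab1) to class ab, 11 to class b, 2 to class c, 8 to class s and 3 to class v. The rule used names only and no measured value. By knowledge of the complex 37 of them are subunits, while Ndufa4 is now counted with complex IV and Ndufa4l2 is its paralog, so both are members by name only.

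The libraries were made from skeletal muscle of wild-type (WT) mice without a treatment other than the fractionation, and age, sex and strain of the animals are not stated in the labels. The SM-mito group is isolated mitochondria (2 libraries) and the SM-total group is called remaining tissue (2 libraries), since one label names tissue without mitochondria and others name total tissue, so that it is not settled whether the reference is whole or depleted muscle. The study's methods describe the isolation for hearts, where the low-speed pellet of debris served as the rest fraction and mitochondria were exposed to digitonin and RNase A ahead of RNA extraction, and whether muscle was handled in the same way is not stated. Nothing in the labels ties a library to an animal, and p-values measure only the spread between these 2 libraries per group, which may be technical. These are bulk libraries, in which fewer cells of a type and less RNA per cell cannot be told apart.

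Complex I takes electrons from NADH, passes them through a flavin and a chain of iron-sulfur clusters to ubiquinone and pumps protons across the inner membrane. Its catalytic core consists of nuclear-encoded subunits in the matrix arm and mitochondrially encoded ND subunits in the membrane arm, and the many accessory subunits around this core are all nuclear-encoded. Nuclear-encoded subunits are translated on cytosolic ribosomes and imported, so their mRNAs work outside the mitochondrial matrix, in part at the outer membrane, whereas the ND mRNAs are made and translated inside the organelle. Skeletal muscle is rich in the complex, most of all in its oxidative fibres.

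Values are normalized counts, that is, read counts divided by the size factor of the library and rounded. Depth differed widely between the fractions. Remaining tissue held an estimated 15704021 and 15301842 reads in replicates 1 and 2, and isolated mitochondria 42750253 and 35305367, but 95.28% and 94.12% of the latter fell on mitochondrially encoded genes against 22.31% and 20.53% in remaining tissue. Leaving out these genes and their nuclear copies, 100924 and 181152 reads of isolated mitochondria were assigned to nuclear genes. The 39 members together had 559 and 843 of them, and the median member tested had 13 and 17.5 reads. One read was worth 9.0488 normalized counts in replicate 1 and 5.0591 in replicate 2, which sets the smallest step that a member could show in these libraries. In remaining tissue the same genes rested on an estimated 44901 and 43402 reads.

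**Figure D1:**
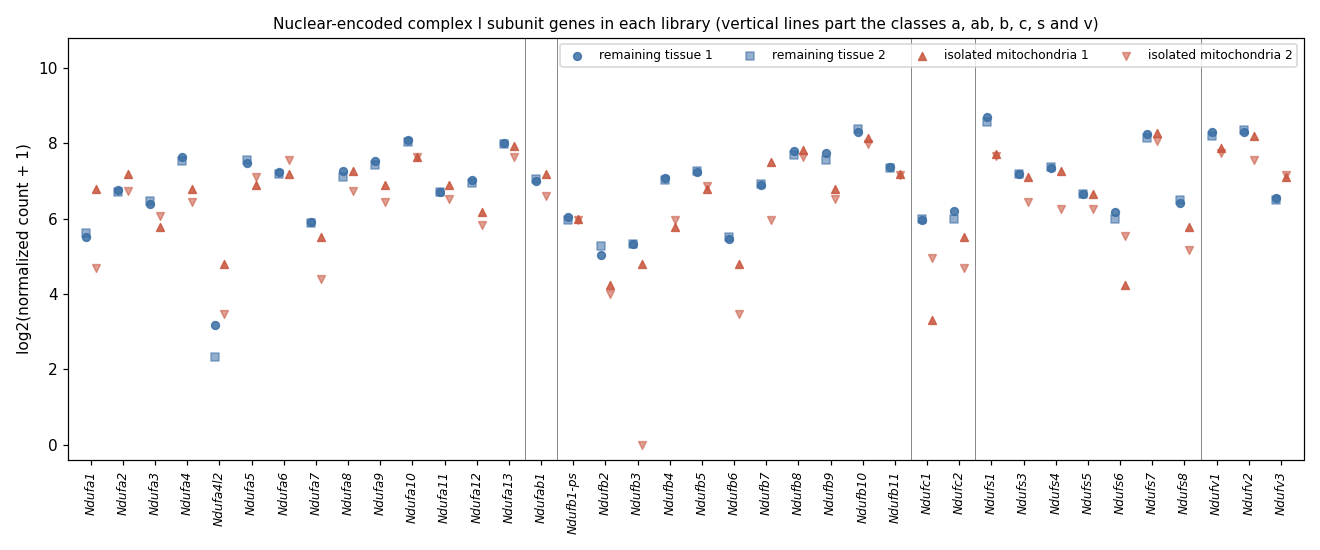
Each of 38 members on the x axis is shown with its value in each library as log2(normalized count + 1) on the y axis, blue for remaining tissue and red for isolated mitochondria, with vertical lines between the classes. The 2 libraries of remaining tissue nearly coincide for most members, while those of isolated mitochondria are spread, most of all for Ndufb3 with 27 and 0 normalized counts.

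The changes of the nuclear-encoded subunits lay about the median of all genes, far from those of the mitochondrially encoded subunits. Of the 39 members, 38 averaged 20 normalized counts or more and were tested with limma on log2(normalized count + 1). Ndufa4l2, with 8 and 4 normalized counts in remaining tissue and 27 and 10 in isolated mitochondria, was below this limit. The threshold was a Benjamini-Hochberg adjusted p of 0.05 over all 6916 genes tested. None of the 38 passed it as higher in isolated mitochondria, and 2 passed it as lower, namely Ndufs1 and Ndufb4. Among all genes tested 7.32% were called higher and 9.30% lower, so that the 5.26% of members called lower was no more than the background. The median log2 fold change of the members was -0.45, beside -0.44 for all genes tested, and their values ran from -2.92 (Ndufb3) to 0.61 (Ndufv3).

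At an unadjusted p under 0.05 (limma), 9 members were lower and 1 was higher, or 23.7% and 2.63%, beside 21.9% and 15.1% of all genes. With edgeR on reads 1 member was called higher and 1 lower, where 16.0% and 12.6% of all genes were called. DESeq2 on reads called 1 higher and 2 lower, where 20.3% and 12.7% of all genes were called. Groups did not overlap for 26 members that were lower in both libraries of isolated mitochondria (68.4%, beside 43.7% of all genes) and for 1 that was higher (2.63%, beside 25.5%). This count follows the scale. When libraries were scaled to the total of nuclear genes, 2 members were lower (5.26%, beside 17.8%) and 20 higher (52.6%, beside 47.9%) without overlap. The median of all genes moved from -0.44 to 0.43 under that scaling and the median of the members from -0.45 to 0.45, which put the members at -0.004 and 0.012 from the median of all genes.

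The intervals show what these libraries could resolve. For 15 of the 38 members the 95% interval of the log2 fold change lay within a 2-fold change either way on the deposited scale, and for 30 within a 4-fold change. Intervals of 28 members included 0. Replicates of remaining tissue differed by a median of 0.065 on the log2 scale and those of isolated mitochondria by 0.36. In 29 of the 38 members replicate 1 of isolated mitochondria was above replicate 2, with a median difference of 0.28, while over all genes the median difference was -0.15. The median of the members was -0.45 and -0.46 without replicate 1 or 2 of remaining tissue, beside -0.44 and -0.43 for all genes. Without replicate 1 or 2 of isolated mitochondria it was -0.62 and -0.37, beside -0.28 and -0.43 for all genes. In the latter fits a lone library of isolated mitochondria was taken to vary as little as those of remaining tissue.

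**Figure D2:**
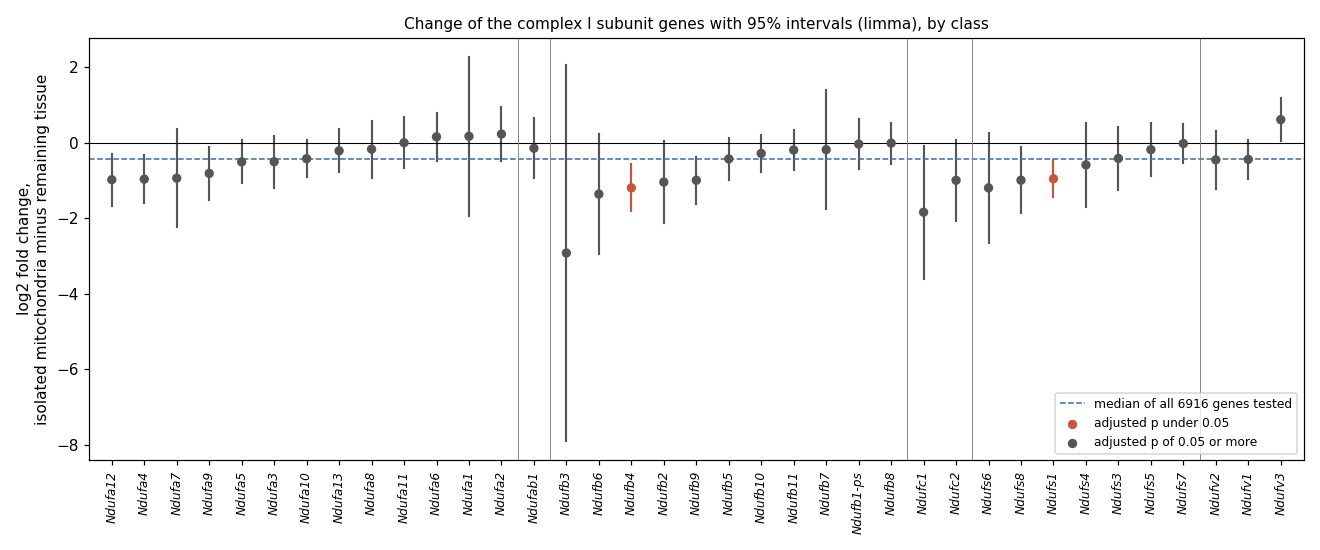
The log2 fold change of isolated mitochondria minus remaining tissue is shown for 37 of the 38 members tested, with 95% intervals from limma, ordered within classes. The dashed line marks the median of all genes tested at -0.44, about which most members lie, and the red points are Ndufs1 and Ndufb4, with an adjusted p under 0.05.

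The core subunits of the NADH-oxidising end came first. Ndufv1 carries the flavin that accepts electrons from NADH, and Ndufv2 and Ndufs1 hold iron-sulfur clusters of the chain behind it. Ndufs1 (chr1:63143596-63176833, GRCm38) had 417 and 379 normalized counts in remaining tissue and 208 and 202 in isolated mitochondria, where it rested on 23 and 40 reads. Both libraries of isolated mitochondria were well below both of remaining tissue. On the log2 scale the change came to -0.95 ± 0.180 (SE, adjusted p = 0.0422 by limma), or -0.51 relative to the median of all genes. Over 14 alternative settings its sign stayed negative and its adjusted p ran from 8.53e-05 to 0.839 (both limma). The lowest came under scaling to the total of all genes, where 96.8% of all genes were called lower. The highest came under scaling to nuclear genes, where its change was -0.060. Without replicate 1 or 2 of remaining tissue its change was -0.88 and -1.02, with an adjusted p of 0.582 and 0.464 (limma). Lower calls over all genes also went from 643 to 176 and 188 in these fits. Its exons overlap those of Eef1b2 and Ino80dos on the opposite strand, and the strand setting of the counting was not stated.

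Ndufv1 had 317 and 290 normalized counts in remaining tissue and 235 and 212 in isolated mitochondria. Its groups did not overlap, and the change was -0.44 ± 0.188 on the log2 scale (SE, adjusted p = 0.175 by limma). Ndufv2 had 314 and 324 against 290 and 187, with the spread almost wholly within isolated mitochondria, and a log2 change of -0.45 ± 0.281 (SE, adjusted p = 0.305 by limma). Both values were about the median of all genes.

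Further core subunits line the path from the iron-sulfur chain to ubiquinone. Ndufs7, which holds the last cluster before the quinone, had 303 and 280 normalized counts in remaining tissue and 308 and 268 in isolated mitochondria. These values overlapped fully, with a log2 change of -0.020 ± 0.191 (SE, adjusted p = 0.948 by limma) and a 95% interval from -0.54 to 0.50. Ndufs8, a carrier of further iron-sulfur clusters, had 85 and 90 against 54 and 35, on 6 and 7 reads, with a log2 change of -0.99 ± 0.320 (SE, adjusted p = 0.109 by limma). Ndufs3, a core subunit without a cluster, had 144 and 145 against 136 and 86, with a log2 change of -0.41 ± 0.303 (SE, adjusted p = 0.372 by limma). The 7 core subunits were thus all below 0 on the deposited scale, with a median of -0.45, and 1 of 7 was called lower, beside 4364 of 6916 genes below 0 and 9.30% called lower over all genes, whereas scaling to nuclear genes turned the sign of Ndufs3, Ndufs7, Ndufv1 and Ndufv2, and that of Ndufs7 also turned with the upper quartile, edgeR and DESeq2.

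Each core subunit is present once in the complex, but their mRNAs were not equally abundant. Per kilobase of the principal annotated transcript, normalized counts in the 2 libraries of remaining tissue were 308 and 285 for Ndufs7. They were 191 and 175 for Ndufv1, 185 and 191 for Ndufv2, 157 and 142 for Ndufs1, 138 and 139 for Ndufs3 and 84.6 and 89.6 for Ndufs8. The values of Ndufv1 and Ndufv2 overlapped, and the interval between Ndufs1 and Ndufs3 was narrow beside the spread of Ndufs1. In isolated mitochondria Ndufs7 had 313.3 and 272.6 on this scale, on either side of its 2 values in remaining tissue. The order depends on the length used. Per kilobase of all annotated exons of the gene, the mean in remaining tissue was 169.7 for Ndufs7, 67.78 for Ndufs8, 66.35 for Ndufs3 and 49.22 for Ndufs1.

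Among the accessory subunits of the matrix arm the values ran in both directions. Ndufv3, a small accessory subunit near the NADH-binding end, had 92 and 89 normalized counts in remaining tissue and 136 and 142 in isolated mitochondria, on 15 and 28 reads. It was the only member tested with both libraries of isolated mitochondria above both of remaining tissue on the deposited scale. Its log2 change was 0.61 ± 0.207 (SE, adjusted p = 0.118 by limma). With edgeR and DESeq2 on reads it was called higher (adjusted p = 0.0267 and 0.0038), where 16% and 20.3% of all genes were called higher. It was also called higher without a filter on low values (adjusted p = 0.0277 by limma, 4.04% of all genes). The same held when scaled to nuclear genes (adjusted p = 0.0207 by limma, 16% of all genes). Its sign was the opposite where libraries were scaled to the total of all genes (adjusted p = 0.000145 by limma, 96.8% of all genes called lower). In the other settings with all 4 libraries it was not called, with adjusted p from 0.0612 to 0.322 (limma).

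In the same arm Ndufs6, needed for assembly of the NADH-oxidising module, had 72 and 63 against 18 and 46 normalized counts, with a log2 fold change of -1.19, the lowest of class s, on 2 and 9 reads. Ndufa12 had 130 and 122 against 72 and 56, with a log2 fold change of -0.98, the lowest of class a, and Ndufa9, which binds NADPH, had 183 and 172 against 118 and 86 (log2 fold change -0.81). Ndufa2, with a thioredoxin-like fold, had 107 and 104 against 145 and 106 and the highest value of class a at 0.23. Ndufa6 (0.16), Ndufa5 (-0.51), Ndufa7 (-0.94) and Ndufs4 (-0.59) completed the group, whose 9 members had a median log2 fold change of -0.59 with none called. Groups overlapped for Ndufa2 and Ndufa6 only.

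The membrane arm contributed 20 accessory subunits with a median log2 fold change of -0.35, of which 1 was called lower. Ndufb4 (chr16:37647170-37654453, GRCm38), a subunit at the far end of the membrane arm, had 135 and 130 normalized counts in remaining tissue and 54 and 61 in isolated mitochondria, on 6 and 12 reads. Its groups were far apart, with a log2 change of -1.19 ± 0.226 (SE, adjusted p = 0.0422 by limma), or -0.75 relative to the median of all genes. The sign held in all 14 alternatives. With all 4 libraries its adjusted p ran from 7.71e-05 to 0.394 (both limma). The lowest came under scaling to all genes, where 96.8% of them were called lower, and the highest under scaling to nuclear genes. Without replicate 1 or 2 of remaining tissue its change was -1.17 and -1.22, with an adjusted p of 0.608 and 0.572 (limma). Its reads cannot be told from those of the identical pseudogene copy Ndufb4c over the stretch that both share.

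The extremes of this group rested on very few reads. Ndufb3 had 39 normalized counts in both libraries of remaining tissue and 27 and 0 in isolated mitochondria, that is, 3 reads and none, and its log2 fold change of -2.92 had a 95% interval from -7.89 to 2.05. Ndufc1 had 61 and 63 against 9 and 30, on 1 and 6 reads (log2 fold change -1.84), and Ndufb6 had 43 and 45 against 27 and 10, on 3 and 2 reads (-1.36). None of these 3 differences was detectable at this depth (adjusted p = 0.306, 0.125 and 0.176 by limma). Of the 38 members, 8 had fewer than 10 reads in both libraries of isolated mitochondria. Ndufa1, whose gene lies on the X chromosome, had 45 and 48 against 109 and 25 and was above and below remaining tissue in 1 library each.

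Several of the better covered members of the membrane arm lay nearer to 0, but Ndufb9 did not. Ndufb10, one of its subunits with disulfide bonds formed in the intermembrane space, had 317 and 332 against 281 and 253 (log2 fold change -0.28). Ndufb8 had 220 and 205 against 226 and 197, with the value nearest to 0 in class b at -0.009. Ndufa13, also known as Grim-19, had 258 and 250 against 244 and 197 (-0.21), and Ndufa10 had 271 and 260 against 199 and 197 (-0.42). Ndufb9, with 213 and 186 against 109 and 91, did not overlap between groups either (-0.99, adjusted p = 0.0577 by limma). The remaining members of the arm, Ndufa3, Ndufa8, Ndufa11, Ndufb1-ps, Ndufb2, Ndufb5, Ndufb7, Ndufb11, Ndufc2 and Ndufs5, lay between -1.04 for Ndufb2 and 0.002 for Ndufa11. Ndufab1, the acyl carrier protein that sits in both arms and also serves mitochondrial fatty acid synthesis, had 128 and 133 against 145 and 96 (-0.14).

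By class, the medians of the log2 fold change were -0.42 for the 13 members of class a tested, -0.43 for the 11 of class b, -1.42 for the 2 of class c, -0.72 for the 8 of class s and -0.44 for the 3 of class v. Class c consists of Ndufc1 and Ndufc2 (-0.99), both with 6 reads or fewer in each library of isolated mitochondria. Calls were 0 in class a, 1 of 11 in class b, 0 in class c, 1 of 8 in class s and 0 in class v, all of them lower, where 9.30% of all genes were called lower. Across the 38 members the change was weakly related to the level in remaining tissue (Pearson r = 0.30, Spearman rho = 0.20 across genes of the same 4 libraries). The 19 members with the lower levels had a median of -0.94 and the 19 with the higher levels one of -0.43. Ndufa4, a member by name only, had 197 and 183 against 109 and 86 normalized counts (log2 fold change -0.96, adjusted p = 0.064, limma).

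Shares of counts do not depend on the size factors. Of the counts on nuclear genes without copies of mitochondrial DNA, the 39 members held 0.374% and 0.363% in replicates 1 and 2 of remaining tissue, with 95% Wilson intervals of 0.371 to 0.378 and 0.359 to 0.366. They held 0.554% and 0.465% in the replicates of isolated mitochondria, with intervals of 0.510 to 0.602 and 0.435 to 0.498. Intervals cover counting error only, not the spread between libraries. They may understate that error, because no molecular identifiers tell apart reads copied from one molecule. In remaining tissue they rest on estimated reads. The group means were 0.369% ± 0.00842 and 0.510% ± 0.0626 (SD, n = 2 each), so that the share was 1.38 times as high in isolated mitochondria, a difference larger than the spread between replicates. Scaled to the total of these nuclear genes, the median log2 fold change was 0.43 over all genes tested and 0.45 over the members. The rise of the members was thus near that of the median gene. The order of their share between the groups depends on leaving out the 17 nuclear copies. With the copies in the denominator and the mitochondrially encoded genes still out, the share was 0.368% and 0.357% in remaining tissue and 0.0277% and 0.0406% in isolated mitochondria, or 10.6 times lower on average. With 2 libraries against 2 the smallest two-sided p of an exact permutation test is 0.3333, and none was run.

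The denominator of this share moved between the groups as well. The 12 markers of skeletal muscle held 33.8% and 32.7% of the same nuclear counts in remaining tissue but 8.33% and 7.38% in isolated mitochondria, and 11 of the 12 were called lower. The members' counts amounted to 1.11% of those of the muscle markers in each library of remaining tissue, and to 6.65% and 6.30% in isolated mitochondria. All 6 fibroblast markers were called higher (0.0923% and 0.0987% of nuclear counts against 1.11% and 2.03%), as were all 3 macrophage markers tested of 5 listed. Of 6 neuron markers listed, 3 were in the table and 2 were tested, Rbfox3 and Cntn1, which were both called higher. Of the endothelial markers 1 of 5 tested was called lower, and none of 2 adipocyte, 1 Schwann and 2 erythrocyte markers tested was called. The part of these markers in the share was not tested.

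**Figure D3:**
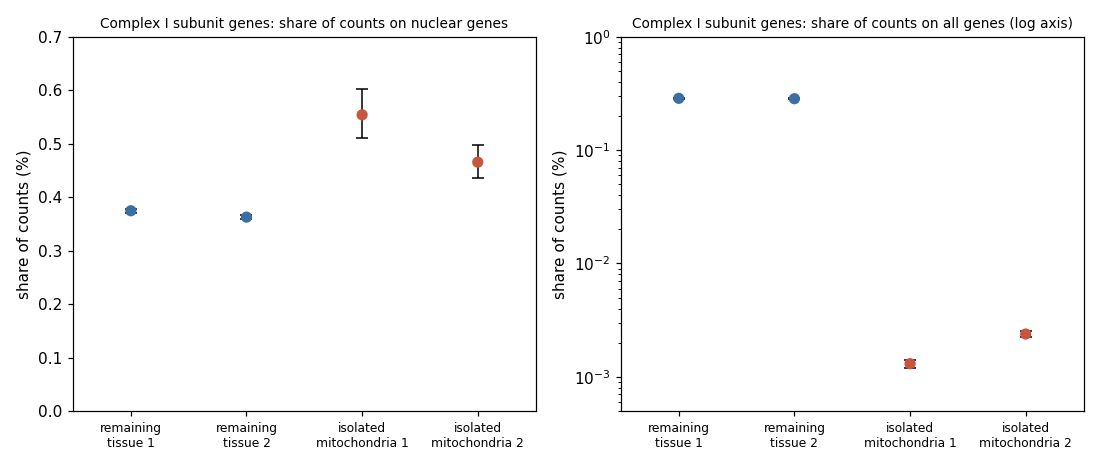
The share of counts on the 39 members is shown for each library as a point with its 95% Wilson interval, on the left as a percent of counts on nuclear genes without copies and on the right as a percent of counts on all genes on a log axis. On the left isolated mitochondria lie above remaining tissue (0.554% and 0.465% against 0.374% and 0.363%), and on the right far below it (0.00131% and 0.00239% against 0.286% and 0.284%).

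With all genes as the denominator isolated mitochondria were lower as well. The members held 0.286% and 0.284% of all counts in remaining tissue and 0.00131% and 0.00239% in isolated mitochondria, 154 times less on average, with most reads of the latter on mitochondrially encoded genes.

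The 7 mitochondrially encoded subunits of the same complex were called higher without exception, with a median log2 fold change of 8.63, from 7.98 for mt-Nd6 to 9.16 for mt-Nd4l. The gene mt-Nd6, the only one of them on the light strand, had 400 and 403 normalized counts in remaining tissue and 110802 and 93138 in isolated mitochondria. For mt-Nd4l they were 1230 and 1178 against 884772 and 536752. Counts of the 7 genes amounted to 6.62 and 6.36 times those of the 37 nuclear-encoded subunits in remaining tissue, and to 4141 and 2736 times in isolated mitochondria. These ratios are independent of the size factors. The log2 fold changes of the 2 sets of subunits did not come near each other, as the highest of a nuclear-encoded subunit was 0.61.

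**Figure D4:**
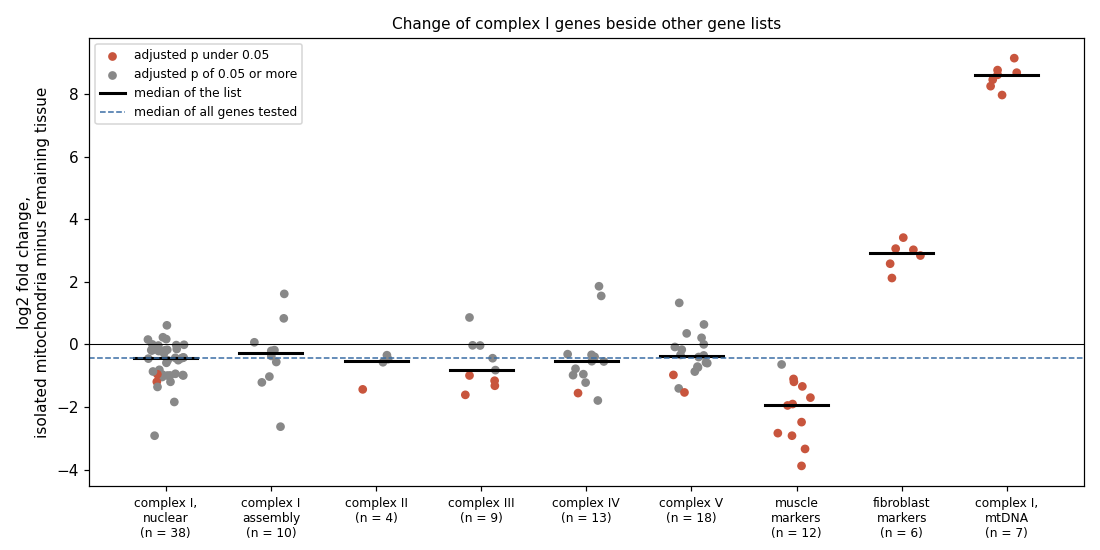
The log2 fold change of isolated mitochondria minus remaining tissue is shown for each tested gene of 9 lists, with a bar at the median of the list, red points for an adjusted p under 0.05 (limma) and a dashed line at the median of all genes. The nuclear-encoded subunits of complex I and of complexes II, IV and V lie about that line, and those of complex III have a lower median (-0.82). Muscle markers lie below the line, and fibroblast markers and the 7 mitochondrially encoded complex I subunits above it.

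The other nuclear-encoded genes of the respiratory chain were examined next, from lists of known subunits. None of 10 assembly factors of complex I that were tested (19 in the table) was called, with a median log2 fold change of -0.28. They ran from -2.63 for Tmem70 (43 and 39 against 45 and 0 normalized counts) to 1.62 for Foxred1 (14 and 13 against 54 and 35). In complex II 1 of 4 genes was called lower (Sdha, 931 and 851 against 362 and 298, log2 fold change -1.44), and the median was -0.52. In complex III 4 of 9 were called lower, among them the core proteins Uqcrc1 (-1.16) and Uqcrc2 (-1.32), with a median of -0.82. Complex IV had 1 of 13 called lower, the muscle isoform Cox6a2 (529 and 510 against 136 and 228, log2 fold change -1.56), with a median of -0.54, and complex V 2 of 18, Atp5o (-1.53) and Atp5b (-0.97), with a median of -0.38. No nuclear-encoded gene of these lists was called higher. Over all genes tested 9.30% were called lower and 7.32% higher. The median of complex I thus lay between those of the other complexes, and differences between the lists were not tested.

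Several members share near-identical stretches with other genes, and some of these genes are pseudogene copies. Stretches of at least 50 nt with at least 95% identity to another gene were found for 20 of the 39 members. For 10 of them the other gene lay elsewhere in the genome, and for the rest it overlapped the member. Ndufc1 alone shared such stretches, of 64 to 125 nt, with 21 other genes, such as Sdhaf2 and Ivd. Copies differ in how well their reads can be told apart. The share of 75-nt windows with a difference was 94.5% for Gm6444 (copy of Ndufb11), 88.9% for Gm45930 (Ndufb3) and 0% for Ndufb4c (Ndufb4). The windows below show where reads of the copy can be told from those of the subunit. They are taken from the coding sequence of the principal transcript and from the aligned copy (GENCODE M21, GRCm38), both 5′ to 3′ on the sense strand, with differing bases in capitals.

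Ndufs5: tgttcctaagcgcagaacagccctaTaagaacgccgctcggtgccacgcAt
Ndufs5-ps: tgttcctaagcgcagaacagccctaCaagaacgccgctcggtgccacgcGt
Ndufab1: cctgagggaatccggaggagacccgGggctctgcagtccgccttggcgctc
Gm4459: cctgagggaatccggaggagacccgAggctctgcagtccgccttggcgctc
Ndufa12: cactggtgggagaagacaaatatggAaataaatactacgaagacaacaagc
Ndufa12-ps: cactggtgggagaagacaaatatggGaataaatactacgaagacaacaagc

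Ndufs5-ps (chr16:42955631-42955949, plus strand) lies in an intron of Zbtb20 and matches the coding sequence of Ndufs5 over 319 nt with 2 differences, T81C and A105G, counted from the first coding base with the base of Ndufs5 first. Of the 75-nt windows along this stretch, 40.4% hold at least 1 of them. The copy had 20 and 23 normalized counts in remaining tissue and 45 and 51 in isolated mitochondria, on 5 and 10 reads, a log2 change of 1.12 ± 0.320 (SE, adjusted p = 0.0884 by limma). Ndufs5 itself had 99 in both libraries of remaining tissue and 100 and 76 in isolated mitochondria (log2 fold change -0.18). The copy thus amounted to 20.2% and 23.2% of Ndufs5 in remaining tissue and to 45.0% and 67.1% in isolated mitochondria. The host gene Zbtb20, on the same strand, had a log2 change of -0.54 (adjusted p = 0.0965 by limma).

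Gm4459 (chr7:139659688-139660155, minus strand), in an intron of Cfap46, differs from Ndufab1 by G137A alone over 468 nt, counted in the same way, and 19.0% of the windows hold this base. It had 45 and 38 normalized counts in remaining tissue and 18 and 40 in isolated mitochondria, while its host Cfap46, on the same strand, was called higher (log2 change 5.058, adjusted p = 0.0366 by limma). Ndufa12-ps (chr5:130188395-130188796, plus strand), in an intron of Rabgef1, differs from Ndufa12 at 2 positions over 402 nt, the one shown being A99G counted from the first base of the copy, and had 22 and 24 against 27 and 5. Its host Rabgef1, also on the same strand, was called lower (log2 change -2.80, adjusted p = 0.0127 by limma). For Ndufb4, one of the 2 members called lower, the copy Ndufb4c (chr15:73809507-73809896, minus strand) is identical over 390 nt, so that no read lying wholly inside it can be placed. It nevertheless had 40 and 33 normalized counts in remaining tissue and 9 and 15 in isolated mitochondria, in the same order as Ndufb4. Values of these 4 members and their copies are therefore uncertain, and the part of misplaced reads was not tested. The limit is not confined to them. Gm12251 matches the core subunit Ndufs3 over 792 nt, and 63.4% of the windows hold a difference. This copy amounted to 16.0% and 15.2% of Ndufs3 in remaining tissue and to 13.2% and 0% in isolated mitochondria.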

How the data were processed

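RNA of 2 libraries of isolated mitochondria and 2 of remaining tissue was sequenced after fractionation by differential centrifugation, with a stranded low-input total RNA kit and a fragmentation time adjusted for mitochondrial samples, so that fragmentation and group cannot be told apart. The submitters' processing notes name Trimmomatic 0.39, STAR 2.7.10a, featureCounts 2.0.2, DESeq2 1.30.1 and build mm10. The authors left out reads that overlapped several genes or aligned to several places. What the authors deposited is a signal, namely counts divided by size factors and rounded. Strand setting and the rule for keeping genes were not stated.

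Low values were whole multiples of one read within rounding for 100% of 10508 and 11660 values of isolated mitochondria, and 1 normalized count was taken as 7.05 reads in remaining tissue. Genes with a mean of at least 20 were tested on log2(normalized count + 1) in R 4.3.3 by the trended eBayes fit of limma 3.58.1, two-sided, with Benjamini-Hochberg adjustment over all genes, at a threshold of 0.05. All changes refer to this log scale, on which those of low genes depend on the pseudocount. The change of Ndufb3, with no read in 1 library, was -2.92 with a pseudocount of 1 and -1.35 with 10. edgeR 4.0.16 and DESeq2 1.42.0 on reads were alternatives. For remaining tissue these reads were estimates, as the same factor of 7.05 was used for both of its libraries. The fits were tested on simulated data. Nuclear copies are the 17 genes of which at least 50% resembled mitochondrial transcripts. Members and gene lists were chosen with earlier results of these data known. Full statistics were given for the nuclear core subunits, of which 1 is not reported here, and for members past the threshold whose groups did not overlap, values for the extremes of each class, and at most 4 genes of other lists. Protein sequences were not used here.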

Additional observations from a re-analysis of the deposited data

How the results depend on the processing

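The 2 calls of lower members became 4 without a filter on low values, where 18.4% of all genes were called lower. The calls became 38 when each library was divided by its total over all genes (96.8% of all genes). With the replicate block or with edgeR they became 1 (16.5% and 12.6%). They became 0 with a mean of at least 5 (3.37%) and without the trend (5.41%). Scaling to nuclear genes (2.65%) or to the upper quartile (6.98%) also gave 0. So did leaving out the members that share a near-identical stretch, among them Ndufs1 and Ndufb4. Calls of higher members went from 0 to 1 without a filter (4.04% of all genes called higher) and when scaled to nuclear genes (16%). With edgeR (16%) and with DESeq2 (20.3%) they became 1 as well. When single libraries were left out, lower calls ran from 0 to 27, higher calls from 0 to 4 and the median from -0.62 to -0.37. In these fits 1 group had a lone library, whose spread was taken from the other group. Calls over all genes moved as well, upward without a library of isolated mitochondria and downward without one of remaining tissue. The call counts of these fits are therefore not a result on the members. The median of the members was -7.24 when scaled to all genes, 0.45 to nuclear genes, -0.22 to the upper quartile, -0.21 with edgeR and -0.16 with DESeq2. Relative to all genes it was 0.24 without a filter, -0.34 when scaled to all genes, -0.17 with edgeR and -0.17 with DESeq2, and from -0.35 to 0.06 without single libraries, against -0.004 as reported. The causes were not tested.

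The share on the members was 0.00185% in isolated mitochondria and 0.285% in remaining tissue with all genes as the denominator, and 0.0341% in isolated mitochondria against 0.362% in remaining tissue when nuclear copies of mitochondrial genes were counted in, so that both denominators turned its order between the groups. Without Ndufa4 and Ndufa4l2 it was 0.357% in remaining tissue. Without single libraries it ran from 0.465% to 0.554% in isolated mitochondria and from 0.363% to 0.374% in remaining tissue.

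Among single genes, scaling to nuclear genes turned the sign of Ndufs3 (0.47), Ndufs7 (0.87), Ndufv1 (0.45), Ndufv2 (0.44) and Ndufb8 (0.88), and scaling to all genes that of Ndufa2 (-6.54) and Ndufv3 (-6.17). Ndufs7 and Ndufb8, both near 0, also turned with the upper quartile (0.21 and 0.22), edgeR (0.22 and 0.23) and DESeq2 (0.25 and 0.26), and without single libraries they ran from -0.12 to 0.080 and from -0.11 to 0.089, above 0 without replicate 1 of remaining tissue (0.037 and 0.041) or replicate 2 of isolated mitochondria.

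Replicate numbers are shared by label only, and deviations of samples with the same number correlated at 0.14 over 6916 genes. With the replicate block as a pairing, 1 member was called lower (Ndufc1, adjusted p = 0.0423, limma) and 1144 of all genes in place of 643. Depth is a further limit, as 8 of 38 members had fewer than 10 reads in both libraries of isolated mitochondria.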
